A study of Mus musculus with 20 samples.

Results

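The dystrophin-glycoprotein complex was examined through 8 genes, Dmd, Utrn, Dtna, Dag1, Sgca, Sgcb, Sgcd and Sspn, out of the 55416 genes in the count table. A gene was included when its Ensembl identifier carried one of these symbols in the GENCODE M21 annotation, and all 8 were found once each. All 8 also had enough counts to be tested. Dmd lies on chromosome X, Utrn on chromosome 10, Dtna on chromosome 18, Dag1 on chromosome 9, Sgca and Sgcd on chromosome 11, Sgcb on chromosome 5 and Sspn on chromosome 6. The exons of Dtna overlap an antisense gene over 90 bases and those of Sspn over 69 bases, and the other 6 genes share no exon with an annotated gene. The genes were taken by symbol and not by a measured value, although earlier results of these data were known when they were chosen.

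RNA was measured in the quadriceps of aged wild-type (WT) C57BL/6J male mice, 26 to 28 months old. Each mouse received a single intramuscular injection of 50 µL, either 0.9% saline (control, n = 10) or a secretome product of partially differentiated human pluripotent stem cells in saline (n = 10). The animals had been fasted, and the injected right muscle was collected 3 h after the injection. All mice of both groups were of the same strain, sex and age range, so that untreated or young muscle was not part of the comparison. Each muscle came from 1 mouse and gave 1 library of total RNA depleted of ribosomal RNA.

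Dystrophin is a long rod-shaped protein beneath the muscle fibre membrane that ties the actin cytoskeleton to β-dystroglycan. Dystroglycan, the sarcoglycans and sarcospan carry the link through the membrane to laminin outside the fibre, and loss of dystrophin or of a sarcoglycan leads to muscular dystrophy. Utrophin, the autosomal relative of dystrophin, binds the same partners and is concentrated at the neuromuscular and myotendinous junctions of adult fibres.

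The reads counted on genes numbered 13286983 to 22987237 per muscle. Levels are given as normalised CPM (counts per 1000000 reads of a library size scaled by the TMM method). The share of reads on Ttn, the gene of titin, followed the library numbers in the labels. Libraries 1 to 5 were controls and had 7.02% to 11.03%, libraries 6 to 15 held 5 muscles per treatment and gave 16.4% to 21.1%, and libraries 16 to 20 were secretome-treated with 14.2% to 14.7%. The labels name no batch, and outside libraries 6 to 15 the treatment and the library range cannot be told apart. Values within libraries 6 to 15 are therefore given beside those over all muscles. The summed level of 6 myofibre markers was 75900 to 140500 CPM in control and 102100 to 155300 CPM in secretome-treated muscle, and none of the 6 was at 0 in any muscle.

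RefSeq promoter windows were found for 7 of the 8 genes. The 250 bases before the annotated start are shown for Dmd and Sgcb because these were the members whose levels followed each other most closely from muscle to muscle. Capitals mark matches on either strand to an E-box (CANNTG), a GC box (GGGCGG), an M-CAT element (CATTCC), an N-box (TTCCGG), a CArG box or a MEF2 site. Both windows are from GRCm38.p6, the first on the plus strand at chrX:82948620-82948869 and the second on the minus strand at chr5:73647738-73647987.
Dmd: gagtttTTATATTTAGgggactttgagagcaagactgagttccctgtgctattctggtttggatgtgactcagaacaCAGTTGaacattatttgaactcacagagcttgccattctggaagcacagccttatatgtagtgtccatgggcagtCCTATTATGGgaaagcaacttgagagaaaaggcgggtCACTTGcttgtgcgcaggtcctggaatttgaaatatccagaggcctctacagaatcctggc
Sgcb: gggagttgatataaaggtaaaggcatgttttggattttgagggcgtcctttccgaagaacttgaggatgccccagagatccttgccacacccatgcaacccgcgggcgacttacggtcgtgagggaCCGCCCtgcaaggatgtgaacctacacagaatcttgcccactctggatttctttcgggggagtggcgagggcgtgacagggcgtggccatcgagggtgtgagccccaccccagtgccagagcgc

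The Dmd window held 2 E-boxes, 1 CArG box and 1 MEF2 site, and 45.2% of its bases were G or C. The Sgcb window held 1 GC box and none of the other 5 motifs, with 58.4% G or C. Among all 32851 RefSeq windows of this length, 66.2% held an E-box, 32.7% a GC box, 12.6% an M-CAT element, 12% an N-box, 1.47% a CArG box and 2.92% a MEF2 site. RefSeq gives Dmd a second start, and the window before it, which is not shown, held 3 GC boxes and none of the other 5 motifs.

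The members differed widely in level (CPM per kb of exon, over all annotated exons of a gene). Sgca, which encodes the α-sarcoglycan found almost only in striated muscle, stood highest among the 8 with 75.1 ± 9.02 CPM per kb in control muscle (mean ± SD, n = 10), which placed it 311th of 14417 tested genes with a known length. Dag1, the precursor of α- and β-dystroglycan, followed with 40.8 ± 6.06 CPM per kb. Dmd came next with 22.5 ± 5.23 CPM per kb, beside Sgcb with 19.97 ± 4.63. The order of Dmd and Sgcb was not fixed, since Dmd was the higher of the pair in 16 of 20 muscles and their control ranges overlapped.

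The lower part of the order held Sspn with 10.3 ± 1.597 CPM per kb, Dtna with 8.10 ± 1.55 and Sgcd with 7.09 ± 0.691. Sspn exceeded Dtna in 18 and Dtna exceeded Sgcd in 17 of 20 muscles, with overlapping ranges in both pairs. Utrn stood lowest with 5.27 ± 0.578 CPM per kb, below Sgcd in 20 of 20 muscles, and was 4404th of the 14417 genes. Sgca was above Dag1, Dag1 above Dmd, and Sgcb above Sspn in each of the 20 muscles. When a level was divided by the longest transcript in place of all exons, Dtna moved to 21.8 CPM per kb and stood above Sspn in 20 of 20 muscles, and Dmd moved to 35.95 CPM per kb and stood below Dag1 in 16 of 20. By longest transcript, the control mean of Dtna was also above that of Sgcb (21.4), and that of Sgcd (13.15) above that of Sspn (11.35). The places of Dtna and Sgcd therefore depended on the length used. By control mean Dmd stayed below Dag1, while Sgca remained highest and Utrn lowest.

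**Figure D1:**
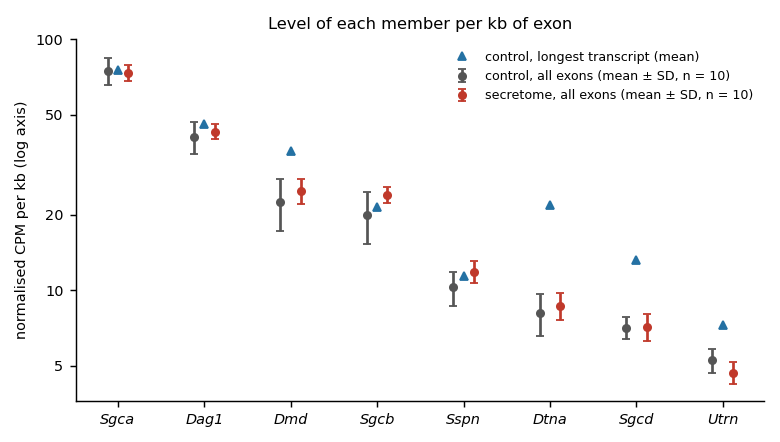
Level of each member in normalised CPM per kb on a log axis, with circles for the mean and bars for the SD of 10 control and 10 secretome-treated muscles, and triangles for the control mean per kb of the longest transcript. Sgca stands highest at 75.1 and Utrn lowest at 5.27 CPM per kb in control muscle, and the triangle of Dtna lies far above its circle.

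Secretome-treated muscle was compared with control muscle to ask whether the RNA of the complex differed 3 h after the injection. No member passed a 5% false discovery rate (quasi-likelihood test of edgeR, p-values adjusted by Benjamini-Hochberg over the 14471 genes tested), where 0.00691% of all genes passed. DESeq2 called 0 of the 8, and 216 of the 32456 genes it tested. The log2 fold changes of the 8 genes lay between -0.17 for Utrn and 0.27 for Sgcb with a median of 0.09, beside a median of -0.03 over all genes tested. Before adjustment 3 members had a p under 0.05, of which 2, Sgcb and Sspn, were higher and 1, Utrn, was lower, where 6.52% of all genes were higher and 9.21% were lower at that limit. No member passed it within libraries 6 to 15, where 0% of all genes did, and 0 members there had an unadjusted p under 0.05, where 9.95% of all genes did. In bulk muscle, fewer cells of a type and less RNA per cell cannot be told apart. The p-values over all muscles rest on the spread between mice of a treatment, which includes differences between library ranges.

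Dmd was the most abundant member before division by length. Its level in control muscle had a lowest value of 293, a median of 553 and a highest value of 684 CPM, and in secretome-treated muscle a lowest value of 486, a median of 603 and a highest value of 720 CPM. The groups overlapped, and 4 controls lay below all secretome-treated muscles while 1 secretome-treated muscle lay above all controls. The means were 536 ± 124 CPM in control and 594 ± 68.7 CPM in secretome-treated muscle (SD, n = 10 each), with a log2 fold change of 0.15 (SE 0.125, edgeR p = 0.245, adjusted p = 0.570). Control replicate 2 had both the lowest Dmd level and the lowest total of reads, and without it the log2 fold change was 0.08. It was 0.16 within libraries 6 to 15 (SE 0.126). When trends on GC content and exon length were removed from each library, the log2 fold change of Dmd was 0.0038 over all 20 muscles.

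Utrn was the lower member with the smallest p, though it did not pass the adjustment. Control muscle ranged from 66.9 to 101 CPM with a median of 90.6, and secretome-treated muscle ranged from 60.8 to 92.1 CPM with a median of 80.5. The groups overlapped, with 9 of 10 secretome-treated muscles below the control median and 5 controls above all secretome-treated muscles. The means of 90.1 ± 9.88 and 80.3 ± 8.32 CPM gave a log2 fold change of -0.17 (SE 0.0807, edgeR p = 0.0495, adjusted p = 0.316). Within libraries 6 to 15, all 5 secretome-treated muscles lay below the control median, and the log2 fold change was -0.14 (SE 0.0883, edgeR p = 0.132, adjusted p = 0.596). Between libraries 16 to 20 and libraries 1 to 5 it was -0.18 (SE 0.137). When trends on GC content and exon length were removed, it was -0.24 over all 20 muscles (edgeR p = 0.0055, adjusted p = 0.225). Within libraries 6 to 15 it was then -0.19 (edgeR p = 0.0446, adjusted p = 0.82).

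Utrn is also made outside muscle fibres, and markers of several other cell types were lower in the same muscles. The 5 macrophage markers were all lower, 3 of them at an unadjusted p under 0.05 by edgeR, and their summed level was 68.8 to 193 CPM in control against 39.5 to 155 CPM in secretome-treated muscle. Of 5 smooth muscle markers 3 were tested and all 3 were lower, 2 at an unadjusted p under 0.05, and the summed level of the 5 was 41.5 to 67.4 CPM in control against 30.2 to 66.3 CPM in secretome-treated muscle, with Cnn1 at 0 in some muscles. The 5 adipocyte markers were all lower, 1 at an unadjusted p under 0.05, with 52.0 to 271 CPM in control against 25.8 to 95.8 CPM. The endothelial sum was 91.3 to 179 CPM in control against 99.1 to 156 CPM, with 1 of 5 markers higher and no gene at 0. In libraries 6 to 15 all 5 macrophage, all 3 tested smooth muscle, all 5 adipocyte and all 5 endothelial markers were lower, with an unadjusted p under 0.05 for 3, 0, 2 and 1 respectively. Of all 14471 genes tested over all muscles, 8084 were lower, 1333 of them at an unadjusted p under 0.05. In libraries 6 to 15, 7532 of all 14469 genes were lower, 712 of them at that limit. None of the markers passed the false discovery rate. Their part in the level of Utrn was not tested.

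The remaining marker lists held no gene with an unadjusted p under 0.05 over all muscles. The 5 fibroblast markers were all lower with 0 of 5 at an unadjusted p under 0.05 (158 to 756 CPM in control, 229 to 479 CPM in secretome-treated muscle). The 5 Schwann cell markers were likewise all lower with 0 of 5 under 0.05 (16.8 to 26.1 against 11.9 to 23.3 CPM), with Sox10 at 0 in some muscles. Of 5 neutrophil markers 4 were tested, 2 were higher, and 0 had an unadjusted p under 0.05 (4.47 to 95.9 against 3.76 to 99.8 CPM), with S100a8, S100a9 and Retnlg at 0 in some muscles. All 6 myofibre markers were higher with 0 of 6 under 0.05, whereas 2 of 6 were higher within libraries 6 to 15. In that range 3 of the 5 fibroblast markers were higher, 1 of them at an unadjusted p under 0.05, and their median log2 fold change was 0.13 beside -0.32 over all muscles. Of the Schwann cell markers 1 of 5 and of the neutrophil markers 2 of 4 were higher there, with 0 at an unadjusted p under 0.05.

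**Figure D2:**
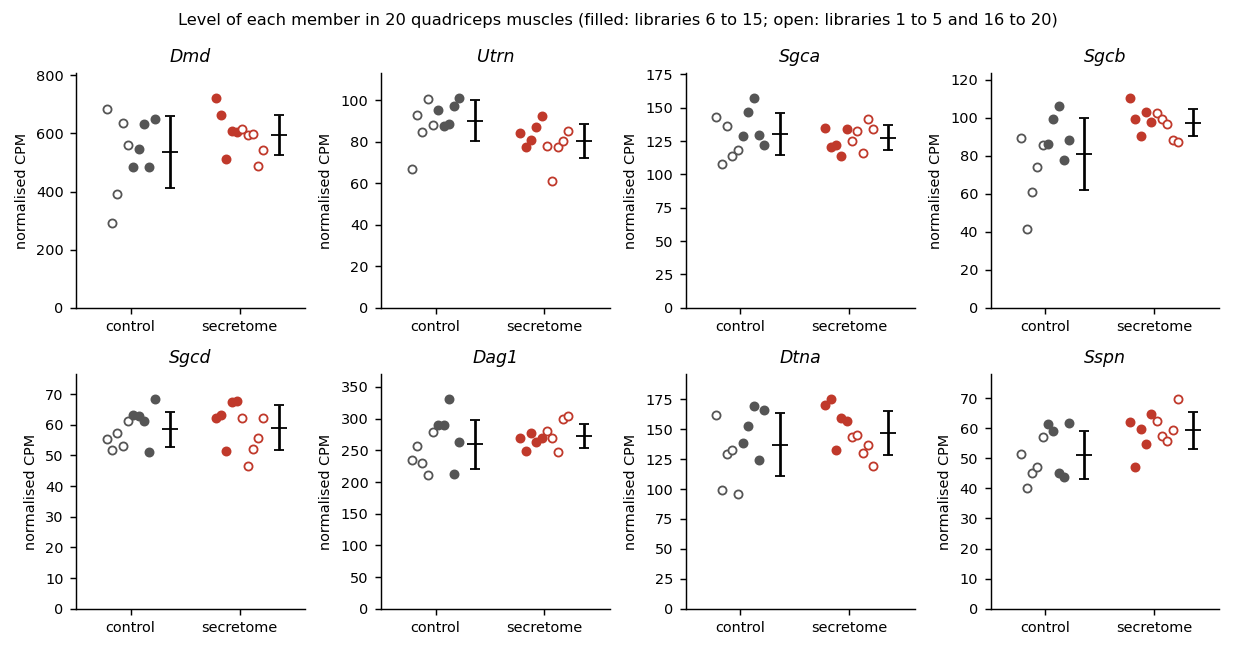
Level of each member in normalised CPM in 20 quadriceps muscles, control in grey and secretome in red, with filled circles for libraries 6 to 15, open circles for the other libraries, and the mean ± SD of each group at its right. The groups overlap in every panel, all 10 secretome-treated muscles exceed the control median of Sgcb, and 9 of 10 stay under that of Utrn.

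Utrophin and dystrophin compete for the same place in the complex. Their balance was measured within each library as Utrn reads relative to Dmd reads, which does not depend on the scaling between libraries. The 2 genes differ in exon length and GC content, and trends on these were not removed from the ratio. With such trends removed, the log2 fold change by edgeR over all 20 muscles was 0.0038 for Dmd and -0.24 for Utrn. In control muscle Utrn reads were 9.79% of Dmd reads at the lowest, 15.9% at the median and 31.7% at the highest. After secretome treatment the lowest, median and highest were 10.2%, 13.6% and 16.5%. The groups overlapped, and 9 of 10 secretome-treated muscles were below the control median. Both extremes of the ratio were controls, replicate 1 at the low end and replicate 2 at the high end.

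The mean ratio was 17.98 ± 5.87% for control muscle and 13.7 ± 2.12% after secretome treatment. The difference in the mean log2 ratio was -0.35, a ratio 0.786 times that of control (two-sided permutation test with 100000 resamples, p = 0.0373). Within libraries 6 to 15 the difference was -0.31, with 17.1 ± 2.66% in 5 controls and 13.7 ± 1.93% in 5 secretome-treated muscles, and it did not pass 0.05 (two-sided exact permutation test, p = 0.0794). Between libraries 1 to 5 and 16 to 20 it was -0.39 (two-sided exact permutation test, p = 0.262). Leaving out 1 muscle at a time moved the difference between -0.44 without control replicate 1 and -0.25 without control replicate 2, and in 9 of these 20 cases p was above 0.05 (control replicates 2, 3, 6 and 9 and secretome replicates 1, 2, 6, 7 and 8). The direction was the same in all 20. Per kb of exon, Utrn stood at 25.0 ± 8.17% of Dmd in control and 19.02 ± 2.95% in secretome-treated muscle.

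**Figure D3:**
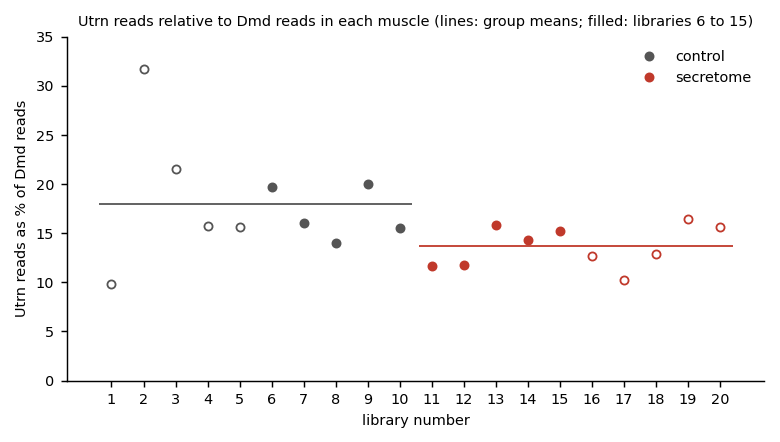
Utrn reads as a percentage of Dmd reads in each muscle by library number, control in grey and secretome in red, with lines for the group means and filled circles for libraries 6 to 15. The control mean is 17.98% and the secretome mean 13.7%, and the highest value, 31.7%, is control replicate 2.

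The sarcoglycans form a tetramer beside dystroglycan that steadies the complex in the membrane. Sgcb, which encodes β-sarcoglycan, the core of that tetramer, had 41.5 CPM at the lowest, 85.9 at the median and 106 at the highest in control muscle, against 87.3, 98.4 and 110 CPM in secretome-treated muscle. All 10 secretome-treated muscles were above the control median, 6 controls lay below all of them, and 4 controls fell within their range. The means of 80.9 ± 18.8 and 97.4 ± 7.23 CPM gave a log2 fold change of 0.27 (SE 0.118, edgeR p = 0.0329, adjusted p = 0.278). The spread of control muscle came largely from libraries 1 to 5, where the mean was 70.3 ± 19.6 CPM, beside 91.5 ± 11.3 CPM in control libraries 6 to 10 (n = 5 each). Within libraries 6 to 15 the log2 fold change was 0.14 (SE 0.104, edgeR p = 0.199, adjusted p = 0.649). With the 3 library ranges as a term it was 0.13, a fit in which only libraries 6 to 15 compare the treatments. When trends on GC content and exon length were removed, it was 0.20 over all 20 muscles (edgeR p = 0.0566, adjusted p = 0.357). Within libraries 6 to 15 it was then 0.03 (edgeR p = 0.730, adjusted p = 0.969).

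Sgca and Sgcd, which encode α- and δ-sarcoglycan, had nearly the same level in both groups. Sgca ranged from 108 to 157 CPM in control and from 114 to 141 CPM in secretome-treated muscle, with medians of 129 in both. Its log2 fold change was -0.03 (SE 0.0757, edgeR adjusted p = 0.864) and -0.12 within libraries 6 to 15 (SE 0.0986), and it was 0.11 after removal of the GC and length trends. Sgcd ranged from 51.1 to 68.3 CPM in control and from 46.4 to 67.8 CPM in secretome-treated muscle, with medians of 59.3 and 62.1. Its log2 fold change was 0.01 (SE 0.0802, edgeR adjusted p = 0.952), and 0.04 within libraries 6 to 15 (SE 0.107). After removal of those trends it was -0.15 over all 20 muscles (edgeR p = 0.142, adjusted p = 0.491). Within libraries 6 to 15 it was then -0.23 (edgeR p = 0.00801, adjusted p = 0.737). Over all 20 muscles, before that removal, both fold changes were smaller than their errors, and no direction can be given for either gene.

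Sspn encodes sarcospan, a small membrane protein that binds the sarcoglycans. It had 40.2 CPM at the lowest, 49.4 at the median and 61.6 at the highest in control muscle, against 47.0, 59.6 and 69.6 CPM in secretome-treated muscle. The groups overlapped, although 9 of 10 secretome-treated muscles lay above the control median and 4 lay above all controls. The means of 51.2 ± 7.98 and 59.2 ± 6.12 CPM gave a log2 fold change of 0.21 (SE 0.0896, edgeR p = 0.0278, adjusted p = 0.267). It was 0.10 within libraries 6 to 15 (SE 0.127, edgeR p = 0.446, adjusted p = 0.787), and 3 of 5 secretome-treated muscles lay above the median of the 5 controls. With the 3 library ranges as a term, where again only libraries 6 to 15 compare the treatments, it was 0.09. When trends on GC content and exon length were removed, it was 0.15 over all 20 muscles (edgeR p = 0.065, adjusted p = 0.371). Within libraries 6 to 15 it was then 0.04 (edgeR p = 0.748, adjusted p = 0.972). By limma voom with quality weights it was 0.12 over all 20 muscles (p = 0.143, adjusted p = 0.555).

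Dag1 and Dtna did not differ beyond the spread between mice. Dag1 ranged from 211 to 331 CPM in control and from 247 to 304 CPM in secretome-treated muscle, with a log2 fold change of 0.07 (SE 0.0845, edgeR adjusted p = 0.699). The sign turned within libraries 6 to 15, where it was -0.05 (SE 0.114) and all 5 secretome-treated muscles lay below the median of the 5 controls. Dtna, which encodes α-dystrobrevin, a cytoplasmic partner of dystrophin that holds the syntrophins, ranged from 95.5 to 170 CPM in control and from 120 to 175 CPM in secretome-treated muscle. Its log2 fold change was 0.10 (SE 0.107, edgeR adjusted p = 0.665), and 0.09 within libraries 6 to 15.

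The difference between the effect in libraries 6 to 15 and the effect outside them was tested as an interaction. No member passed the 5% false discovery rate, where 0.0553% of all 14471 genes did, and 0 of the 8 had an unadjusted p under 0.05 by edgeR, where 11.1% of all genes did. The largest estimate was that of Sgcb, with a log2 fold change lower by 0.30 within libraries 6 to 15 (SE 0.213, edgeR p = 0.174). Between libraries 16 to 20 and libraries 1 to 5, 0 members passed the false discovery rate, as did 0% of all genes. Sgcb had a log2 fold change of 0.43 (SE 0.182) and Sspn of 0.34 (SE 0.121) there, both at an unadjusted p under 0.05, which 6.53% of all genes reached in the higher direction and 9.56% in the lower.

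**Figure D4:**
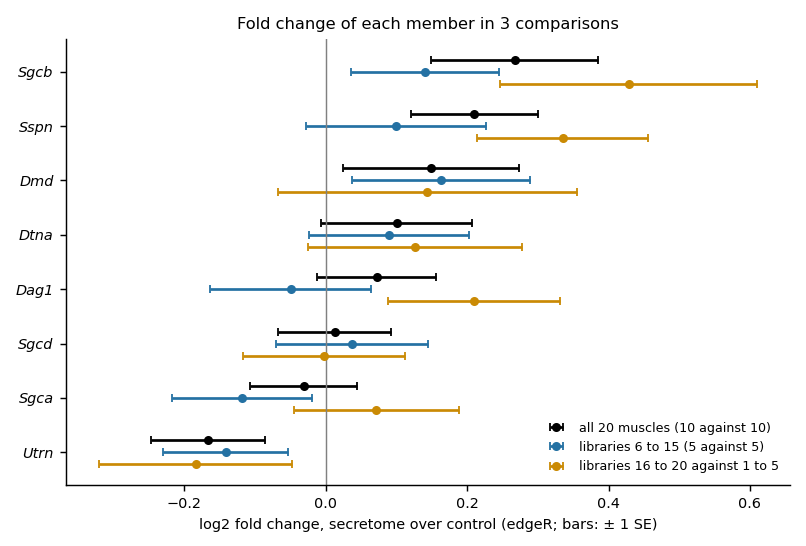
Log2 fold change of each member, secretome over control, with bars of 1 SE from edgeR, over all 20 muscles (black), within libraries 6 to 15 (blue) and between libraries 16 to 20 and 1 to 5 (yellow). Utrn lies below 0 in all 3 comparisons at -0.17, -0.14 and -0.18, and Sgcb lies above 0 at 0.27, 0.14 and 0.43.

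Members were next compared with each other from muscle to muscle, after the mean of each of the 4 combinations of treatment and library range (inner, 6 to 15, or outer) had been taken from the log2 CPM. Trends on GC content and exon length were not removed from these levels, and their part in the correlations was not tested. Over 20 muscles, 20 of the 28 pairs had a positive Pearson's r, and the median r was 0.25. Dmd and Sgcb were the 1 pair that passed adjustment, with r = 0.89 (permutation within the combinations, 100000 resamples, p = 4.4e-04, adjusted p = 0.0123 over 28 pairs) and Spearman's rho = 0.83 (permutation p = 8.1e-04, adjusted p = 0.0227). Without control replicates 1 and 2, the 2 muscles farthest from the median of Dmd, r was 0.75. Neither gene was the closest match of the other. Of 14470 tested genes, 138 had a larger r with Dmd than Sgcb had, and 78 had a larger r with Sgcb than Dmd had.

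Sgcd and Sspn had r = 0.52 (permutation p = 0.0238, adjusted p = 0.334) and rho = 0.61 (permutation p = 0.00653, adjusted p = 0.0914), and r was 0.55 without the 2 muscles farthest from the median of Sgcd. Dmd and Dtna had r = 0.64 (permutation p = 0.0447, adjusted p = 0.374), rho = 0.63 (permutation p = 0.0223, adjusted p = 0.208) and r = 0.42 without the 2 farthest muscles. The lowest r of all pairs, -0.47, was that of Utrn and Dtna (permutation p = 0.0902, adjusted p = 0.374), with rho = -0.40 (permutation p = 0.116, adjusted p = 0.446), and it was -0.16 without the 2 farthest muscles. Utrn and Dmd had r = -0.27 (permutation p = 0.475, adjusted p = 0.665), rho = -0.16 (permutation p = 0.555, adjusted p = 0.740) and r = 0.12 without the 2 farthest muscles, and did not pass adjustment.

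The genes outside the complex whose residual levels were most like those of Dmd over the 20 muscles were Ghitm (r = 0.97), Tpt1 (r = 0.96) and Ociad1 (r = 0.96). Those most like Utrn were Ppargc1b (r = 0.83), Tspan12 (r = 0.83) and Slc16a12 (r = 0.81). For Sgca they were Wars (r = 0.80), Akt2 (r = 0.77) and Hnrnpul1 (r = 0.77). These genes were picked as the highest of 14407, and the points share their libraries.

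**Figure D5:**
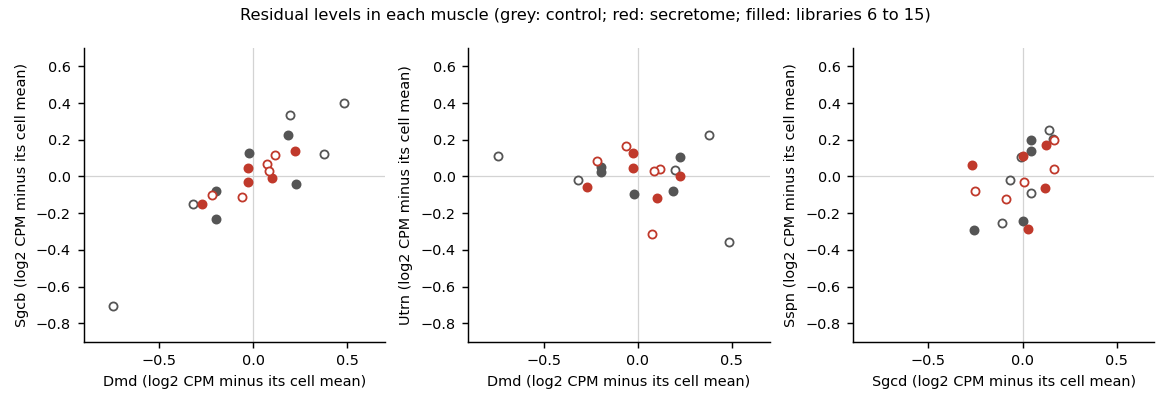
Residual log2 CPM of pairs of members in 20 muscles after the mean of each combination of treatment and library range was taken away, control in grey, secretome in red, filled circles for libraries 6 to 15. Sgcb follows Dmd with r = 0.89, and 0.75 without the 2 muscles farthest from the median of Dmd, while the other pairs, Utrn with Dmd (r = -0.27) and Sspn with Sgcd (r = 0.52), did not pass adjustment.

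The wider pathway was described with 7 lists of 73 genes that act with the complex, of which 69 were tested. No gene of these lists passed the 5% false discovery rate by edgeR, where 0.00691% of all genes passed. At an unadjusted p under 0.05, 3 of the 69 were higher, beside 6.52% of all genes, and 5 were lower, beside 9.21%. Within libraries 6 to 15, 3 of 68 tested were higher and 9 were lower at that limit. Of all 14469 genes tested there, 727 were higher and 712 lower, and 0 genes of the lists passed the false discovery rate. Over all 20 muscles DESeq2 called 0 genes of these lists, and 216 of the 32456 genes it tested. The median log2 fold change of the 69 genes by edgeR was -0.03, beside -0.03 over all genes tested. Of the 69 genes 30 were higher and 39 lower, beside 6387 higher and 8084 lower of all 14471 genes. Sgce, which encodes ε-sarcoglycan and is found more widely in tissues, had 7.06 ± 1.94 CPM in control and 6.00 ± 0.922 CPM in secretome-treated muscle, with a log2 fold change of -0.24 (SE 0.146, edgeR p = 0.120, adjusted p = 0.432). The sign turned within libraries 6 to 15, where it was 0.05.

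Among 8 tested syntrophins, dystrobrevins and partners, 3 were higher and 5 lower. Nos1, the neuronal nitric oxide synthase anchored to the complex by syntrophin, had 221 ± 46.9 CPM in control and 278 ± 64.6 CPM after secretome treatment, with a log2 fold change of 0.33 (SE 0.137, edgeR p = 0.0229, adjusted p = 0.251). In 7 of 10 secretome-treated muscles it exceeded the control median, and within libraries 6 to 15 its log2 fold change was 0.46 (edgeR p = 0.0153, adjusted p = 0.452). Sntb1, which encodes β1-syntrophin, had a log2 fold change of -0.27 (SE 0.170), and of -0.17 within libraries 6 to 15.

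Of 16 tested genes that glycosylate dystroglycan, so that it can bind laminin, 8 were higher and 8 lower. Dpm3, a subunit of dolichol-phosphate mannose synthase, had 6.64 ± 5.89 CPM in control and 3.14 ± 1.21 CPM after secretome treatment, with a log2 fold change of -1.07 (SE 0.352, edgeR p = 0.00601, adjusted p = 0.181) that was -0.37 within libraries 6 to 15. In 9 of 10 secretome-treated muscles it was under the control median.

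On the outer side of the complex, 12 of 13 genes of basement membrane ligands were lower and 1 was higher, with a median log2 fold change of -0.16. Over all 14471 genes 8084 were lower, with a median of -0.03. Bgn, the small proteoglycan biglycan, had a log2 fold change of -0.57 (SE 0.223, edgeR p = 0.0182, adjusted p = 0.237), and Nid2, the linker protein nidogen 2, one of -0.46 (SE 0.217, edgeR p = 0.0439, adjusted p = 0.303). In libraries 6 to 15, 8 of the 13 were lower, and the values of these genes were -0.18 and 0.24. Fibroblast marker levels moved with the library ranges as well, with 430 to 756 CPM in control libraries 1 to 5 and 158 to 303 CPM in control libraries 6 to 10, and their part in these values was not tested.

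Of 5 other laminin receptors, 3 were higher. Itgb1, the integrin β1 chain, exceeded the control median in each of the 10 secretome-treated muscles, with 154 ± 24.4 and 179 ± 11.1 CPM and a log2 fold change of 0.22 (SE 0.0862, edgeR p = 0.0187, adjusted p = 0.239), and of 0.13 within libraries 6 to 15. Bcam, a receptor of laminin α5, had a log2 fold change of -0.24 (SE 0.149), and of -0.35 within libraries 6 to 15 (edgeR p = 0.0183, adjusted p = 0.452). Of 14 costamere linkers 10 were higher over all muscles, where 6387 of all 14471 genes were. Within libraries 6 to 15, 4 were higher, where 6937 of all 14469 genes were. Over all muscles 0 of the 14 had an unadjusted p under 0.05. The smallest p there were those of Vcl, which encodes vinculin, with a log2 fold change of 0.17 (SE 0.0856), and Des, which encodes desmin, with -0.32 (SE 0.163). In libraries 6 to 15 that of Vcl was 0.05 (edgeR p = 0.646, adjusted p = 0.880) and that of Des was -0.39 (edgeR p = 0.0271, adjusted p = 0.470).

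Of 11 membrane repair genes, 4 were higher and 7 lower. Myof, the ferlin family member myoferlin, had 13.4 ± 2.99 CPM in control and 10.1 ± 1.83 CPM after secretome treatment, with a log2 fold change of -0.41 (SE 0.124, edgeR p = 0.00319, adjusted p = 0.158). In 9 of 10 secretome-treated muscles it was under the median of the controls. Anxa5, a calcium-dependent membrane-binding annexin, had a log2 fold change of -0.31 (SE 0.144, edgeR p = 0.0427, adjusted p = 0.2995). These values were -0.31 and -0.43 within libraries 6 to 15. The lower macrophage marker levels given with Utrn were measured in the same muscles, and their part in these values was not tested.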

How the data were processed

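Total RNA of 20 quadriceps muscles, 10 per treatment, was sequenced by the authors as stranded libraries. The deposited values are whole-number counts of reads per gene without normalization, made by the authors. The submitters' processing notes name cutadapt 1.16, STAR 2.7.9a, featureCounts 1.6.3, DESeq2 1.34.0 and GRCm39. Identifiers were joined to symbols and exon lengths through GENCODE M21, another build, so gene coordinates are not given. A total of 13286983 to 22987237 counts per library sets the precision. The treatment came from the labels. Genes were filtered with filterByExpr (14471 of 55416 kept), scaled by TMM and fitted with treatment alone in edgeR 4.0.16 (R 4.3.3). Its robust quasi-likelihood F statistic gave p, adjusted by Benjamini-Hochberg, and an SE (the fold change on the log2 scale divided by the root of F). Log2 CPM used a prior count of 2. Permutation tests used SciPy 1.17.1. The fit was also run on simulated data with larger changes than those of the members and without library ranges. That run does not bear on changes as small as those of the members or on the ranges.

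The members and gene lists were chosen with earlier results of these data known. All members were named, with the 2 genes of smallest p from each list outside the markers, and the 3 genes most like Dmd, Utrn and Sgca. Some genes that this rule names are not reported here. Alternatives were DESeq2 1.42.0, RLE scaling, no filter, a replicate block, limma 3.58.1 (voom, quality weights), the 3 library ranges as a term, GC and length offsets, a 10% false discovery rate, each muscle left out, medians for the ratio, and the longest transcript for levels.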

Additional observations from a re-analysis of the deposited data

Results flagged for a closer look

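In 18 groups of 10 muscles (8 members and the ratio of Utrn to Dmd, each in control and secretome-treated muscle), the gap between an extreme muscle and its neighbour was compared with the whole range of the group. The gap was larger than 0.466 of the range, the limit for 10 samples, in 2 groups, and chance gives about 1 in 20, or 0.9 of 18. Both concerned Utrn at the low end. Control replicate 1 had a log2 CPM of 6.07, with the next control at 6.41, a gap of 0.576 of the range. Secretome replicate 7 had a log2 CPM of 5.93, with the next muscle at 6.27, likewise 0.576 of the range. Without control replicate 1 the log2 fold change of Utrn was -0.21, and without secretome replicate 7 it was -0.13. Its adjusted p by edgeR ranged from 0.194 to 0.440 over the 20 muscles left out in turn.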

How the results depend on the processing

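No member passed the 5% false discovery rate under any alternative, and none did so at 10%. Over the member fold changes, 38 of 504 alternative values turned their direction. Values are log2 differences. With GC and length offsets, over all 20 muscles Sgca was 0.11 and Sgcd -0.15, and within libraries 6 to 15 Dmd was -0.043, Sgca 0.021, Sgcd -0.23 and Dag1 0.036. Over all 20 muscles Sgcd was -0.019 with voom, and Dag1 was -0.061 with the 3 library ranges. With that term only libraries 6 to 15 compare the treatments, so it is not separate from the values within that range. Without the filter the interaction of Dmd was -0.010. Leaving out single muscles gave -0.058 to 0.0027 for Sgca and -0.011 to 0.047 for Sgcd over all muscles, and -0.021 to 0.089 for Sgcd and -0.13 to 0.024 for Dag1 within libraries 6 to 15. For the interaction it gave -0.12 to 0.15 for Dmd, -0.042 to 0.11 for Utrn, -0.031 to 0.096 for Sgcd and -0.16 to 0.033 for Dtna. The cause of these changes was not tested.

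The Utrn to Dmd difference was -0.31 within libraries 6 to 15 (exact permutation p = 0.0794), -0.23 with medians (permutation p = 0.0521) and -0.44 to -0.25 without single muscles. With the replicate number as a block it was -0.35 (exact sign permutation of 10 pairs, p = 0.0293). The labels do not say that equal numbers pair mice. Residuals of same-numbered muscles from the treatment means correlated between -0.24 and 0.221, and 2 of 10 pairs were over 0.1. Same-numbered muscles lie in different library ranges, which were not removed, so these correlations cannot show whether the numbers pair the mice. The replicate block left 0 members and 0 pathway genes past the false discovery rate, and 0 genes in all beside 1 without it. Over all genes and muscles the count past 5% was 216 with DESeq2, 2 with GC and length offsets, 3 with voom, and 0 with the 3 library ranges. Within libraries 6 to 15 it was 37 with DESeq2 and 11 without the filter, and for the interaction 2 without the filter beside 8. No member was among those called. Each member had at least 647 counts in each library.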
